A study of Arabidopsis thaliana with 14 samples.

Results

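The 79 Arabidopsis thaliana genes described here had a higher mean signal in each tissue of the chalazal pole of the seed than in any other compartment measured. They were chosen by their signal intensity, the brightness of a probe set on a linear scale, averaged over the 2 arrays of each tissue. The lower of the chalazal endosperm and chalazal seed coat means had to be at least 300. It also had to be at least 3 times the highest mean among embryo proper, micropylar endosperm, cellularized endosperm and general seed coat, with that highest mean counted as no less than 16. Of 22746 probe sets that are not controls, 142 met these thresholds. Of these, 79 name a single gene by its locus code alone and are the members, 7 name a gene with a symbol, 6 name several genes and 50 name none. Each member is 1 gene with 1 probe set, out of 11798 genes named by locus code. All 79 were found as protein-coding genes in the RefSeq gene table for assembly TAIR10.1. That table gives none of them a symbol, so no roles are described, and AT4G18425 is said only to be on a list of cell death and senescence genes.

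The series measured RNA of Ws-0 seeds at the linear-cotyledon stage with Affymetrix ATH1 arrays, 2 biological replicates in each of 7 groups. The chalazal pole gave chalazal endosperm and chalazal seed coat, and the rest of the seed gave general seed coat, cellularized endosperm, micropylar endosperm and embryo proper, beside whole seeds. All groups shared the Ws-0 genotype and the stage, with embryos 175 ± 11 µm long in siliques of 1.6 to 1.9 cm from plants 38 to 46 days old, and no treatment was labelled. Compartments were cut by laser from fixed and paraffin-embedded sections, and 2 to 5 ng of RNA was amplified for each array. How many plants or seeds went into a replicate is not given in the sources used here, so a p-value reflects no more than the spread between these particular samples, which may be technical. In such bulk samples, fewer cells of a type and less RNA per cell cannot be told apart.

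The chalazal pole is where the vascular strand of the mother plant ends at the seed. Nutrients leave the phloem in the chalazal seed coat, a maternal tissue, and pass to the chalazal endosperm, a multinucleate filial tissue that faces it. The coat and the endosperm have no cytoplasmic connection, so material is exported by cells of the coat and taken up on the filial side.

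The 14 arrays had equal 2% trimmed means of 500, and their medians ran from 106.6 to 183.1. Replicates correlated at r from 0.871 in chalazal seed coat to 0.925 in embryo proper across probe sets, which are not independent replicates. The 3'-to-5' signal ratio of the GAPDH control probe sets, a measure of RNA length, was 13.65 and 8.34 in chalazal endosperm and 2.72 to 7.87 on the other 12 arrays. For the ubiquitin controls the ratio was 8.63 and 8.72 in chalazal endosperm and 5.36 to 12.02 on the others. For the actin controls it was 14.79 and 9.01 in chalazal endosperm and 9.69 to 36.81 on the others. Chalazal endosperm thus stood apart by GAPDH only. The part of RNA length in the members' values was not tested. The arrays titled micropylar endosperm carry a description of whole seeds, which their source field contradicts, and the titles were followed. Without them the rule gave 85 genes, the 79 members and 6 more. Leaving out a compartment can only lower the ceiling of the rule. No member could be lost, so this count does not test the titles.

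The labelled tissues were checked against marker genes. Many probe sets name no gene or several in the platform table, so a listed gene with no probe set of its own there may still be on the array. Of the 7 chalazal endosperm markers listed, only MPC was matched to a probe set, at 125.6 and 145.7 in chalazal endosperm and 26.9 and 7.6 in chalazal seed coat. The endosperm values were close to the medians of those arrays, 107.6 and 126.3. The difference from the coat was not called (limma adjusted p 0.0529). The 2 matched chalazal coat markers were SWEET10, a sugar exporter, and BAN, an enzyme of proanthocyanidin synthesis. Their summed signal was 14971 and 17979 in chalazal seed coat, 1347 and 2148 in general seed coat, and 308.9 and 557.3 in chalazal endosperm. Most of the sum was SWEET10, with a mean of 14508 in chalazal seed coat. BAN had means of 1967 in chalazal and 1586 in general seed coat, so it hardly separated the coat parts. The 2 matched markers of the general seed coat summed to 36944 and 26546 in general seed coat, 8277 and 10330 in chalazal seed coat, and 731.6 and 845.8 in chalazal endosperm. In micropylar endosperm they summed to 1856 and 2297, and in cellularized endosperm to 325.9 and 419.2. The general coat marker SBT1.7 had means of 2050 in micropylar and 327.7 in cellularized endosperm, and BAN 175.7 and 14.5. Both were called higher in micropylar endosperm (limma adjusted p 0.00019 and 0.0104). Whether coat RNA was present in the micropylar samples was not tested. The 2 matched embryo markers summed to 2724 and 2863 in embryo proper and to at most 181.6 in the other compartments. Of the micropylar and peripheral endosperm markers, only AGL62 was matched, and it was low everywhere. Its means were 21.2 in micropylar and 27.0 in cellularized endosperm and 31.4 in chalazal seed coat, so it marked neither endosperm part. None of the phloem and xylem markers was matched, so vascular cells in the chalazal sections were not checked.

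Levels in the chalazal tissues set against the other compartments chose the members, so wherever they are given, for single members too, they are a description and support nothing. Group means of the members ran from 307.8 to 82659 in chalazal endosperm, with a median of 4368, and from 319.3 to 27653 in chalazal seed coat, with a median of 1287. Their medians elsewhere were 146.5 in general seed coat, 68.4 in cellularized endosperm, 42.3 in micropylar endosperm and 38.9 in embryo proper. The lower chalazal mean was 3.06 to 48.3 times the highest of those other means, with a median of 5.01. The general seed coat was that highest compartment for 53 members, micropylar endosperm for 10, embryo proper for 8 and cellularized endosperm for 8. For 72 of the 79, all 4 chalazal arrays lay above all 8 arrays of the other compartments, against 3.06% of all probe sets, a count the rule favours. The 7 exceptions were AT4G34320, AT2G44250, AT1G54260, AT3G25990, AT3G25750, AT5G24510 and AT5G59100. Requiring the lowest chalazal array, not the mean, to pass the same thresholds against the highest other array left 33 genes.

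Near the level threshold, AT4G26490, AT5G59100 and AT4G39670 had lower chalazal means of 307.8, 319.3 and 320.0, and AT1G12180, AT1G57780 and AT5G03930 missed it at 298.8, 296.9 and 293.5. Near the ratio threshold, AT1G68160, AT4G15460 and AT1G20690 were 3.06, 3.17 and 3.17 times the highest other compartment. AT5G45350, AT4G30630 and AT2G18490 missed it at 2.99, 2.97 and 2.97 times.

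**Figure D1:**
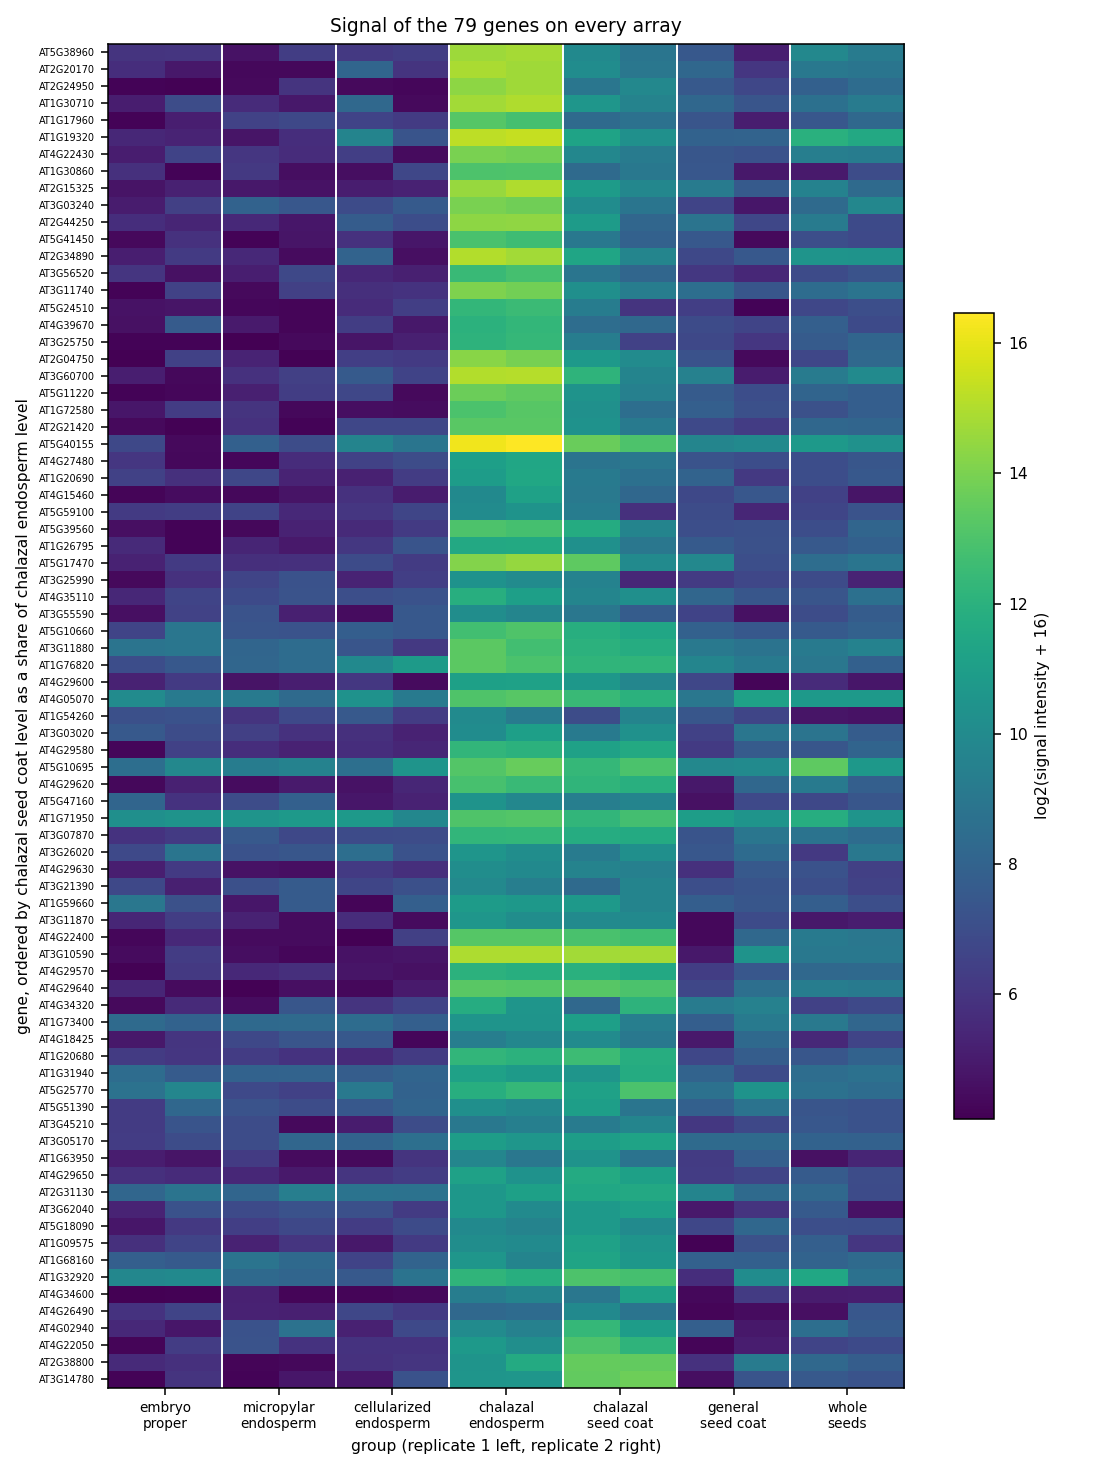
Signal intensity of the 79 members (rows) on the 14 arrays (columns), coloured by log2(signal + 16), with rows ordered by the chalazal seed coat mean as a percentage of the chalazal endosperm mean. The 4 chalazal columns are bright in nearly every row, and the coat columns fade towards the end with the lowest percentage, 2.67% for AT5G38960.

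The member with the highest lower chalazal mean, the measure by which strength is ranked here, was AT3G10590. It read 31353 and 31783 in chalazal endosperm and 27240 and 28067 in chalazal seed coat, ranking 21 and 31 among all probe sets by group mean. The 6 filial arrays outside the chalazal pole stayed between 4.0 and 61.2. General seed coat held 13.1 on 1 array and 1378 on the other, and whole seeds 503.1 and 508.0. The chalazal arrays were above the rest, as the rule selects for, and the general coat arrays were far apart.

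AT5G40155 had the highest endosperm level of the members and ranked 2 among all probe sets there, at 74607 and 90711. It read 12908 and 8108 in chalazal seed coat, and its remaining arrays lay between 4.9 and 1664. Among the 100 highest probe sets of chalazal endosperm were 13 members, and among those of chalazal seed coat only AT3G10590.

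Next in order were AT4G29640 and AT4G22400, which were low in filial tissue away from the pole. AT4G29640 read 10013 and 9387 in chalazal endosperm and 9814 and 7832 in chalazal seed coat, with the 6 other filial arrays at 1.9 to 26.7. AT4G22400 read 9329 and 9292, then 7723 and 6432, with those filial arrays at 0.97 to 70.7. AT1G20680 was lower but as even, at 4780 and 4214 in the endosperm and 5987 and 3581 in the coat, with those arrays at 31.9 to 61.5. The chalazal arrays of these 3 genes lay above the others, as the rule selects for.

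Other strong members kept a clear level in the rest of the seed. AT1G71950 read 8486 and 8993 in chalazal endosperm and 4762 and 6874 in chalazal seed coat, against 901 to 2028 on the 8 arrays of the other compartments. AT4G05070 read 8407 and 9626, then 5724 and 4053, against 315.7 to 2291. AT5G10695 read 8963 and 12239, then 5181 and 7988, against 359.7 to 1418. These 3 genes thus passed the rule by their ratio and not by absence elsewhere. AT1G76820 read 10244 and 7889, then 4665 and 4712, and outside the pole it was highest in cellularized endosperm, at 987.0 and 1789. AT5G17470 completed the 10 strongest, at 18407 and 23016 in the endosperm, while its coat arrays read 10725 and 1023.

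The rule took the lower of both chalazal means and did not fix which tissue held it. Its ceiling on general seed coat and on the other endosperm parts could still favour a direction. How the members divide between the chalazal tissues thus describes the selected genes only. The coat mean was under 10% of the endosperm mean for 23 members and 10% to 50% of it for 13. It was within 2-fold for 38, and at least 2 times the endosperm mean for 5. A call needed an adjusted p (limma, Benjamini-Hochberg) below 0.05 and a difference of at least 2-fold on the log2(value + 16) scale, which understates the change of low genes. The fit covered 15951 probe sets at or above the array median on at least 2 arrays. All 79 members passed that filter through their chalazal arrays, so their shares of calls are not comparable with those of all probe sets, in this and the later comparisons, and the latter are given as background only. Chalazal endosperm was higher than chalazal seed coat for 31 members, or 39.24%, where 12.1% of all probe sets tested were called higher. The coat was higher for 3 members, where 17.6% of all tested were called so. The other 45 were not called, which does not show equal levels. The median log2 difference, endosperm minus coat, was 0.94 over the members and -0.05 over all probe sets tested. Scaling the arrays to equal medians moved that overall median to 0.23 and the calls over all probe sets from 1923 higher and 2809 lower to 2719 and 2276. The members' calls were then 36 and 2.

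**Figure D2:**
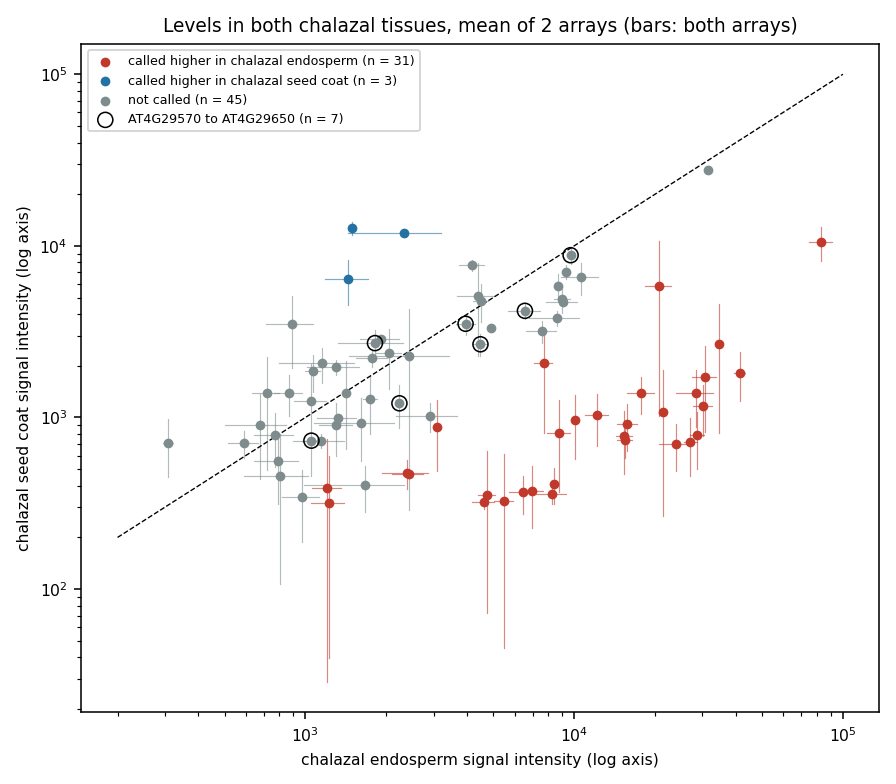
Mean signal in chalazal endosperm (x axis) and chalazal seed coat (y axis) of the 79 members, 1 point each with bars between its 2 arrays, both on log10 axes. The 31 red points were called higher in the endosperm, the 3 blue points higher in the coat, the 45 grey points were not called, and the 7 circled points are neighbours on chromosome 4 that lie near the diagonal.

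All 23 members with a coat mean under 10% were among the 31 called higher in the endosperm, and the remaining 8 had coat means of 10% to 50%. AT5G38960 read 25606 and 28525 in chalazal endosperm and 990.2 and 455.8 in chalazal seed coat, a log2 difference of 5.29 (SE 0.72, limma adjusted p 3.3e-05). AT2G20170 read 30457 and 26944 against 1070 and 500.9, a log2 difference of 5.26 (SE 0.75, adjusted p 5.1e-05). AT2G24950 read 20752 and 26982 against 484.4 and 911.4, a log2 difference of 5.12 (SE 0.65, adjusted p 1.7e-05). In these 3 genes the endosperm arrays lay far above the coat arrays, with no overlap.

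AT1G19320, the second highest member in chalazal endosperm, read 39170 and 43290 there and 2413 and 1244 in the coat, a log2 difference of 4.56 (SE 0.61). AT1G30710 read 27624 and 32502 against 1540 and 781.8, a difference of 4.75 (SE 0.90). AT1G17960 read 9354 and 7135 against 313.1 and 400.8, a difference of 4.47 (SE 0.70). The tissues did not overlap in any of them. AT2G44250 read 21030 and 21614 against 1894 and 268.1, a difference of 4.86 (SE 0.87). AT5G24510 read 5020 and 5915 against 609.5 and 45.5, a difference of 4.80 (SE 0.93), which was 3.13 without coat replicate 2. The coat replicates of these last genes were far apart, and each replicate was still well below the endosperm.

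The 3 members with more signal in the coat were AT3G14780, AT2G38800 and AT4G22050. AT3G14780 read 11578 and 13699 in chalazal seed coat and 1479 and 1506 in chalazal endosperm, a log2 difference of -3.06 (SE 0.88, adjusted p 0.0136). AT2G38800 read 12037 and 11642 against 1437 and 3207, a log2 difference of -2.45 (SE 0.79, adjusted p 0.0259). AT4G22050 read 8290 and 4532 against 1708 and 1182, a log2 difference of -2.10 (SE 0.73, adjusted p 0.0372). The coat arrays lay above the endosperm arrays in all of them. None of the 3 calls held with a pseudocount of 1, and none held in every fit that left out 1 chalazal array.

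Low coat signal beside very high endosperm signal was not particular to the members. Over 80 probe sets with an endosperm mean of at least 5000 and under 300 in embryo proper, micropylar and cellularized endosperm, the coat mean was 1.48% to 94.5% of the endosperm mean, with a median of 6.57%. The 27 members among them had a median of 5.82% and the 53 other probe sets a median of 6.75%. At least 50% was reached by 4 of the members and 4 of the others. Those 4 others met the same level and ratio thresholds and were not members only because they name no gene or several. The other probe sets are thus not all outside the pattern that chose the members. In the opposite direction, over 66 probe sets with a coat mean of at least 5000, the endosperm mean had a median of 2.23% of the coat mean and a lowest value of 0.02%. The 7 members among these ran from 11.8% to 353%. In both directions the level and ratio set for the lower chalazal mean keep the lowest percentages out of the members. Whether RNA of the neighbouring tissue was present in the coat sections was not tested. A coat signal of a few percent of the endosperm signal is therefore given as signal measured in the coat samples, and the label of both chalazal tissues rests for 23 members on such values.

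Replicates differed more in the coat than in the endosperm. Chalazal endosperm replicates were over 2-fold apart for 3 members, with a median ratio of 1.25 and a highest of 2.35. Chalazal seed coat replicates were over 2-fold apart for 33 members, with a median ratio of 1.83. The widest pair was AT3G25990, at 744.3 and 28.7 in the coat beside 1356 and 1060 in the endosperm. Its endosperm call (log2 difference 2.72, SE 1.01, adjusted p 0.0498) was lost under 20 of 24 alternatives, and the difference was 0.68 without coat replicate 2. AT5G59100, at 599.2 and 39.4 in the coat, and AT5G17470 lost their endosperm calls without that array, at log2 differences of 1.00 and 0.94. AT4G34320 went the other way, at 290.7 in replicate 1 and 4281 in replicate 2. Membership moved with these arrays: without coat replicate 1 the rule gave 64 genes, 57 of them members, and without coat replicate 2 it gave 103, with 72 of the members.

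The direction of the replicate difference varied between these classes. Chalazal seed coat replicate 1 was the higher for 20 of the 23 members with a coat mean under 10%, with a median ratio of replicate 1 to replicate 2 of 2.14. It was also the higher for 11 of the 13 members at 10% to 50%, with a median ratio of 1.87. It was the higher for 20 of the 38 members within 2-fold, with a median ratio of 1.03. For the 5 members with the higher coat means it was the higher in 4, with a median ratio of 1.83. In the general seed coat, replicate 1 was the higher for 21 of those 23, with a median ratio of 2.36, and for 9 of those 13. Replicate 2 was the higher there for 29 of those 38, with a median ratio of 0.341, and for 4 of those 5. Over all probe sets tested, replicate 1 was the higher for 52.6% in chalazal seed coat and for 47.6% in general seed coat. Among 38 probe sets that are not members but were as high in the endosperm with coat means under 10%, chalazal seed coat replicate 1 was the higher for 31 and general seed coat replicate 1 for 30. Some of these 38 met the thresholds of the rule and were left out only by how they are named. Endosperm-high genes in and outside the member set thus more often read higher on the same coat arrays, and the cause was not tested.

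**Figure D3:**
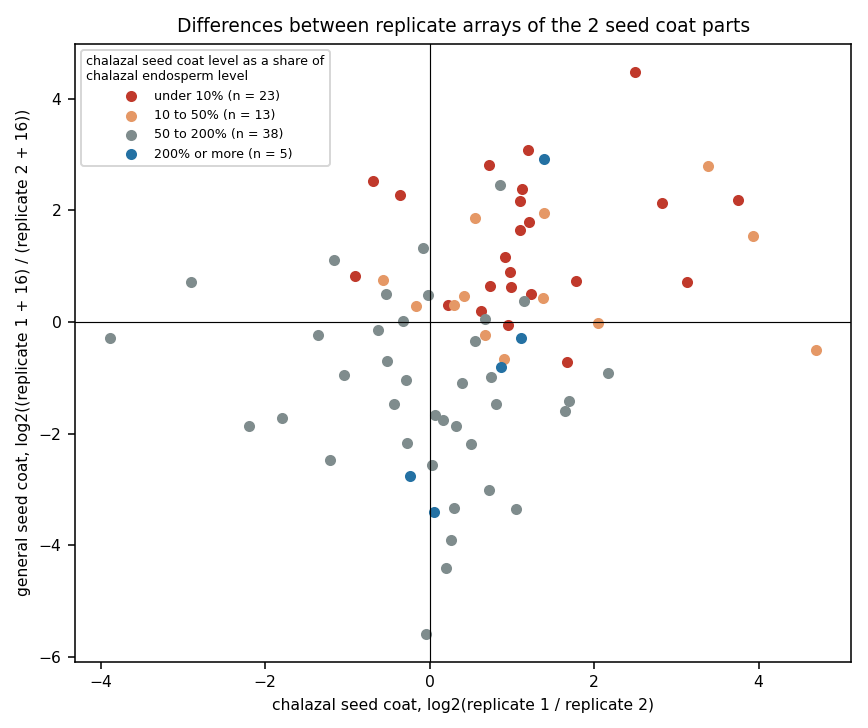
Log2 ratio of replicate 1 to replicate 2 in chalazal seed coat (x axis) and in general seed coat (y axis, with 16 added to each signal) for the 79 members, 1 point each, coloured by the chalazal coat mean as a percentage of the endosperm mean. Points under 10% lie mostly above 0 on both axes, 20 of 23 and 21 of 23, and those from 50% to 200% lie mostly below 0 on the y axis, 29 of 38.

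In the RefSeq gene order of TAIR10.1, 17 members stood in 6 runs with at most 5 protein-coding genes from one to the next. The longest, on chromosome 4, went from AT4G29570 to AT4G29650 and held 7 members among 9 protein-coding genes. Chromosome 4 carried 20 of the 79 members, or 25.3%, and 14.5% of the locus-coded probe sets. Members of the run had endosperm means of 1053 to 9700 and coat means of 54.1% to 149% of them. AT4G29640 was the strongest, with the values given above. AT4G29620 read 7441 and 5675 in chalazal endosperm and 4604 and 3762 in chalazal seed coat. AT4G29580 read 4745 and 4216, then 2269 and 3071, and AT4G29570 read 4266 and 3623, then 3992 and 3040. Their filial arrays away from the pole were at most 73.8. AT4G29600 read 2183 and 2292, then 1556 and 862.5. AT4G29630 read 1135 and 970.6, then 772.9 and 692.6. AT4G29650 alone of the run had the higher mean in the coat, at 2304 and 1325, then 3231 and 2194.

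None of the 7 was called between the chalazal tissues, with log2 differences from -0.60 (SE 0.60) for AT4G29650 to 0.94 (SE 0.83) for AT4G29600. The genes between them that are not members behaved otherwise. AT4G29590 had means of 179.4 in chalazal endosperm and 577.2 in chalazal seed coat, and of 232.6 to 403.8 in the other compartments. AT4G29610 had means of 114.8 and 19.5 in the chalazal tissues, and of 37.2 to 66.7 in the others. General seed coat replicate 2 read higher than replicate 1 for 6 of the 7 members, with AT4G29640 at 91.1 and 372.0. Whether probes of neighbouring genes share sequence was not tested here, so the 7 levels may not be independent measurements.

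**Figure D4:**
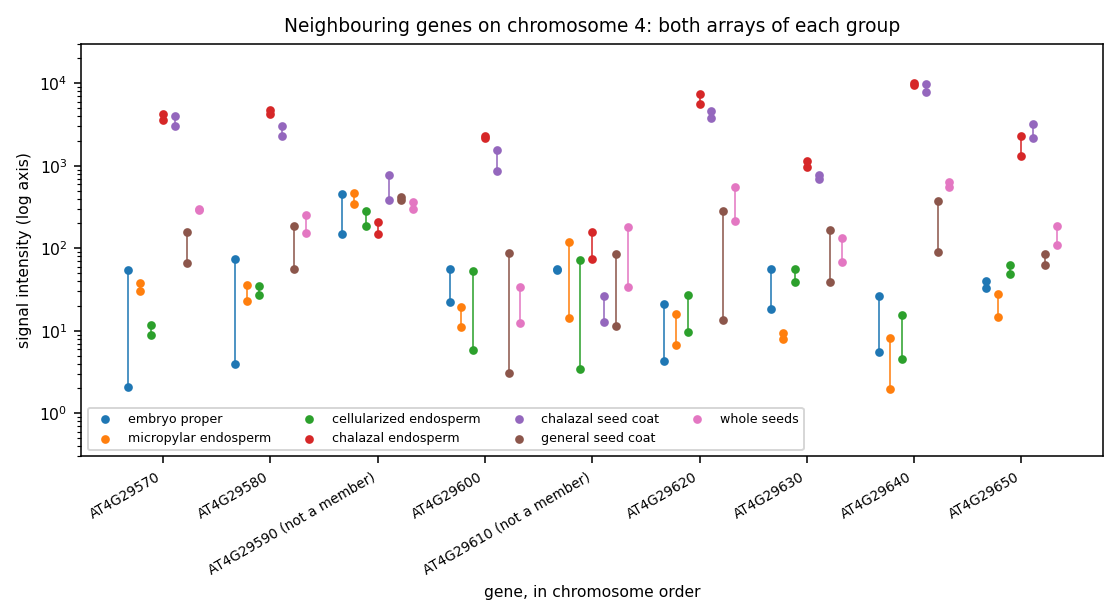
Signal of the 9 neighbouring genes from AT4G29570 to AT4G29650 in gene order (x axis) on each array by tissue (y axis, log10 scale). The 7 members stand between 692.6 and 10013 on the chalazal arrays, and AT4G29610 is at most 155.6 there.

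The other 5 runs were pairs. In AT3G11870 and AT3G11880, which are adjacent, the endosperm means were 1323 and 8601 and the coat means 988.7 and 3795. In AT4G22400 and AT4G22430 the endosperm means were 9310 and 15406, but the coat means were 7078 and 736.5, so neighbours differed in how they divided. AT1G20680 and AT1G20690 differed in the same way, with coat means of 4784 and 474.7 beside endosperm means of 4497 and 2389. The coat means of AT3G25990 and AT3G26020 were 386.5 and 906.3, and those of AT5G10660 and AT5G10695 were 3176 and 6584.

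The rule held the remaining compartments well below the chalazal level, and capped both sides of the next comparisons, but did not fix how they rank among themselves. General seed coat was compared with the mean of embryo proper, micropylar and cellularized endosperm. Of the members, 20 were called higher in general seed coat, or 25.32%, where 12.7% of all probe sets tested were so called. The shares over all probe sets are background only, as members passed the filter through their chalazal arrays. No member was called lower in limma, where 11.0% of all tested were, and 1 was lower at an unadjusted p below 0.05. The median log2 difference was 0.96 over the members and -0.03 over all tested. With arrays scaled to equal medians the overall median moved to -0.25, the calls over all probe sets went from 2029 higher and 1753 lower to 1650 and 2342, and the members' calls were 17 and 0. Without general seed coat replicate 2 the members' calls fell to 12, and 4 of the 20 calls held under every one of the 25 alternatives.

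AT2G15325 read 582.7 and 176.2 in general seed coat and 9.7 to 22.8 on the 6 filial arrays away from the pole, a log2 difference of 3.43 (SE 0.52, adjusted p 9.5e-05). AT4G34320 read 578.8 and 711.7 against 5.2 to 150.4, a difference of 3.64 (SE 0.82, adjusted p 0.00309) that was 3.49 and not called without general seed coat replicate 2. AT4G29640 read 91.1 and 372.0 against 1.9 to 26.7, a difference of 3.02 (SE 0.51, adjusted p 0.000272). AT2G24950 read 169.7 and 88.9 against 2.1 to 45.9, a difference of 2.55 (SE 0.53, adjusted p 0.00174). In these 4 genes both general coat arrays were above all 6 others. AT5G17470 read 913.0 and 117.7 against 22.3 to 104.0, a difference of 2.44 (SE 0.72, adjusted p 0.0174) that was 1.04 and not called without replicate 1. AT3G10590 had a difference of 2.81 (SE 0.88, adjusted p 0.0249) that rested on replicate 2 and was 0.02 without it.

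General seed coat signal was also small beside that of the chalazal coat. It was 0.164% to 31.5% of the chalazal coat mean, with a median of 13.6%, the upper end being set by the rule. The lowest value was that of AT4G22050, at 3.2 and 17.8 in general seed coat.

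Micropylar endosperm, at the pole opposite the chalaza, was compared with cellularized endosperm. In limma, 1 member was called higher in micropylar endosperm, where 4.26% of all probe sets tested were, and 3 were called lower, where 2.31% of all tested were. Here too the shares over all probe sets are background only, as the rule capped the members' level in both tissues. The median log2 difference was -0.30 over the members and 0.08 over all tested. Equal medians moved the overall median to -0.20, the calls over all probe sets from 679 higher and 369 lower to 409 and 632, and the members' calls to 0 and 4. AT1G19320 read 11.3 and 36.9 in micropylar and 791.5 and 143.0 in cellularized endosperm, a log2 difference of -3.24 (SE 0.61, adjusted p 0.00372). AT1G76820 read 269.8 and 337.6 against 987.0 and 1789, a difference of -2.08 (SE 0.45, adjusted p 0.00907). AT2G20170 read 4.3 and 4.7 against 262.6 and 45.3, a difference of -2.67 (SE 0.75, adjusted p 0.0388). The tissues did not overlap in these 3 genes. AT3G11880 was the member called higher, at 264.5 and 338.0 against 148.5 and 55.0, a difference of 1.54 (SE 0.45, adjusted p 0.0477). None of the 4 calls held under all 24 alternatives, and all 4 ended without micropylar replicate 1. Leaving out cellularized replicate 1 also ended the calls of AT1G19320, at -2.06, and AT2G20170, at -1.58. Leaving out cellularized replicate 2 ended those of AT1G76820, at -1.66, and AT3G11880, at 0.94.

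Whole seeds contain every compartment. Their arrays entered the fit and its estimate of the spread, but were in no comparison tested. Member means there ran from 10.6 to 6247, with a median of 219.5, and were 1.57% to 189% of the lower chalazal mean, with a median of 17.4%. A member ranked at a median percentile of 53.4 among whole-seed probe sets. For 22 members both whole-seed arrays lay above all 8 arrays of the 4 compartments outside the pole, where 4.34% of all probe sets did, and the rule chose members for low values in those 8. AT1G19320 had whole-seed values of 3920 and 2978, above its coat values of 2413 and 1244, and was the member at 189%. AT5G10695 had the highest mean, but its arrays read 10847 and 1646. AT1G32920, at 2773 and 404.0, and AT1G71950, at 3597 and 1405, were likewise uneven. AT3G10590, at 503.1 and 508.0, was even and stood at 1.83% of its lower chalazal mean.

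A list of genes for nutrient transfer at the chalazal pole, and general lists of cell death and cytokinin genes, gave the setting for the members. They were compared between chalazal endosperm and chalazal seed coat. Over all probe sets tested, 12.1% were called higher in the endosperm and 17.6% in the coat, with a median log2 difference of -0.05. The medians over the tested list genes were -4.29 for nutrient transfer, 0.04 for cell death and -0.44 for cytokinin. Few genes of each list were tested, so their counts are not compared with these shares. Of 28 nutrient transfer genes, 7 were matched to a probe set and 6 tested in limma, with 1 called higher in the endosperm and 4 in the coat. The glucosinolate transporter gene GTR1 was higher in the endosperm by 2.90 on the log2 scale. SWEET10 and SWEET11, which export sugars, GTR2 and the metal transporter gene ZIP6 were higher in the coat, with log2 differences of -6.10, -4.21, -4.69 and -4.37. Of 14 cell death and senescence genes, 5 were tested, with AT4G04460 called higher in the endosperm by 4.83 and 0 called lower, also at an unadjusted p below 0.05. The member AT4G18425 is on that list and was not called, at 643.0 and 896.6 in the endosperm and 1066 and 513.3 in the coat. Its log2 difference was 0.04 with an SE of 1.03, which is too wide to show equal levels. Of 25 cytokinin genes, 3 were tested, with the response regulator RR16 called higher in the coat at -2.29 and 0 called higher in the endosperm, also at an unadjusted p below 0.05. Some called list genes were highest away from the pole. SWEET11, AT4G04460 and RR16 had their highest means in cellularized endosperm, at 11210, 37712 and 1789. GTR1, SWEET10, GTR2 and ZIP6 had theirs in the chalazal tissue where they were called higher. Members are not on the nutrient transfer or cytokinin lists.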

How the data were processed

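RNA of 7 groups of samples was measured on 14 ATH1 arrays. The values the authors deposited are linear intensity, 1 for each probe set, scaled by the authors to a 2% trimmed mean of 500 on each array, as the values show. The processing software was GCOS, per the submitters' processing notes, whose version and the genome build are not given in the sources used here. The platform table that pairs probe sets with genes can be old, and member codes were matched to RefSeq TAIR10.1 for names and gene order only. In the design text of the series, micropylar endosperm is repeated where the titles have chalazal endosperm. Members and gene lists were chosen with earlier results of these data known.

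Values were tested as log2(value + 16) over 15951 of 22746 probe sets, leaving out 64 controls, with limma 3.58.1 in R 4.3.3 (1 mean per group, 7 residual degrees of freedom, trended variance, Benjamini-Hochberg adjustment), and counted in python 3.11.15. A check of the test on simulated data gave each probe set independent values with the same spread in every group. It could not show how calls behave where the spread differs between groups, as it did between the chalazal tissues. With 2 arrays in each group, their number limits the precision. The genes named with their values were the 10 members with the highest lower chalazal mean, up to 8 called members each way between the chalazal tissues, up to 6 between general seed coat and the filial compartments, up to 4 between micropylar and cellularized endosperm, members at most 5 protein-coding genes apart, and the 3 probe sets on each side of each threshold. Other genes were named after their values were seen where a count or a replicate difference turned on them. Deviations of same-numbered arrays correlated at -0.08 to 0.10 between groups, so the numbers were not taken as pairs. Protein families, product words and promoter motifs were planned but not used here, since no sequence or product table was at hand.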

Additional observations from a re-analysis of the deposited data

How the results depend on the processing

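Between the chalazal tissues, 20 of 34 member calls held under all 25 alternatives, 2 more held under the 24 in which they were tested, and none changed sign. The members numbered 157 with a ratio threshold of 2, 33 with single arrays in place of means, and 64 to 103 without 1 array. Without 1 array, 24 to 31 members were higher in chalazal endosperm and 0 to 3 in chalazal seed coat, and a pseudocount of 1 left 0 higher in the coat. For general seed coat against the filial compartments, 12 to 23 were higher and 0 to 1 lower without 1 array. There 13 were higher in a fit of only the groups compared and with a pseudocount of 64, and 1 was lower with a pseudocount of 1 and without whole seeds. For micropylar against cellularized endosperm, 0 to 1 were higher and 0 to 4 lower without 1 array. There 0 were higher with equal medians, no filter, only the groups compared, a pseudocount of 64, quantile normalization, a replicate block, no variance trend, and without whole seeds. With the replicate number as a block, 30 members were higher and 3 lower between the chalazal tissues, 22 and 0 in general seed coat, and 0 and 4 in micropylar endosperm. All probe sets called numbered 3537 to 4759, 2091 to 3949 and 255 to 1202 in these comparisons without 1 array. Of the lists, without 1 array, nutrient transfer kept 1 higher and 4 lower calls, cell death had 1 to 2 higher and 0 lower, and cytokinin 0 higher and 0 to 1 lower. In the fit of only the groups compared, the cytokinin list had 0 lower. The causes of these shifts were not tested. Several members lie near the pseudocount outside the chalazal pole, which limits what their low values show.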
